A study of Homo sapiens with 24 samples.

Results

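The early androgen response of LNCaP cells was measured by RNA-seq as the difference between cells given 10 nM dihydrotestosterone (DHT) for 4 h and cells given vehicle. LNCaP is a prostate adenocarcinoma line that responds to androgen, and every group of the ligand experiment was first kept for 3 days in phenol red-free RPMI with charcoal-stripped serum, which is low in steroid hormones. The labels give no time for vehicle. The comparison takes 6 of the 24 labelled samples, 4 of vehicle and 2 of DHT for 4 h. Of the 4 vehicle columns, 3 carry the name of replicate 1 and the other that of replicate 2, although the labels call the vehicle samples biological replicates 1 to 4. The 3 columns were summed into 1 library, which left 2 vehicle and 2 DHT libraries, and these 4 belong to an experiment of 10 libraries in 5 conditions (vehicle, DHT for 4 h or 24 h, and the antiandrogen enzalutamide at 10 μM for 4 h or 24 h). The cells are 1 cell line, so the replicates measure the spread between these samples and not between donors.

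DHT is the potent androgen that cells make from testosterone, and like other steroids it acts through a nuclear receptor that moves to chromatin and recruits coactivators to enhancers and promoters. The response element for androgens is a palindrome of 2 hexamers, AGAACA and TGTTCT, separated by 3 bases, a sequence that also serves glucocorticoids, progestins and mineralocorticoids. In luminal prostate cells androgens control secreted kallikreins, lineage factors and lipid metabolism, and many of the known targets carry their main response elements in distant enhancers. In medium with stripped serum there is little steroid, so that added DHT is the main androgen.

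The proximal promoters of the kallikreins KLK3 (prostate-specific antigen) and KLK2 are shown here because they hold the classical promoter element of an androgen target. The sequences are from RefSeq (GRCh38.p14), each covering the 250 bases before the annotated start on the plus strand, at chr19:50854665-50854914 for KLK3 and chr19:50873189-50873438 for KLK2, and the capitals mark the 15 bases nearest to the palindrome.

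KLK3: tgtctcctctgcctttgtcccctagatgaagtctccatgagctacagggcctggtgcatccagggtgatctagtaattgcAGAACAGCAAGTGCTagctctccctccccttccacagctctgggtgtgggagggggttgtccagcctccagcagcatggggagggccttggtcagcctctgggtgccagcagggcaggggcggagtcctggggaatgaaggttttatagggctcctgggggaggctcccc

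KLK2: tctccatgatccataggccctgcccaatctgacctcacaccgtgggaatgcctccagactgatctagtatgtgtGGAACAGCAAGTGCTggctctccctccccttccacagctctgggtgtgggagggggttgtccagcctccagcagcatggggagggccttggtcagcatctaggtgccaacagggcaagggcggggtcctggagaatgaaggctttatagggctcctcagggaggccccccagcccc

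The element began 170 bases before the start in KLK3 and 176 bases before it in KLK2. It differed from the palindrome at 2 of its 12 fixed bases in KLK3 and at 3 in KLK2. A global alignment placed 237 bases of the windows opposite each other, of which 211 (89.0%) were identical. The promoters of TMPRSS2, CHRNA2, SNAI2 and ZBTB16 were not used here.

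The estimated counts of the 4 libraries summed to 38894876 to 59985287, and those of the other ligand libraries to 40281721 to 56454994. Replicates lay close to each other, with a common biological coefficient of variation of 0.0371 over the experiment, although more so in some conditions than in others. Luminal markers were present at 5670 to 7390 CPM (counts scaled to the normalized library size) in sum and none of the 10 was at 0. The 6 basal markers summed to 0.479 to 0.65 CPM, and the leukocyte markers, of which 6 of 8 are in the tables, to 1.3 to 1.73 CPM. The fibroblast and muscle markers (8 of 9 in the tables) summed to 26.9 to 28.6 CPM, of which COL1A1 gave at least 22.7, and the 5 endothelial markers to 15.7 to 18.4 CPM, nearly all from VWF. No basal, fibroblast, leukocyte or endothelial marker that could be tested was called in either direction. Few could be tested, 2 of 6 basal, 5 of 9 fibroblast and muscle, 2 of 8 leukocyte and 1 of 5 endothelial markers. Beside 4.66% called up and 2.11% called down over all genes, the absence of calls among so few says little. Both DHT libraries, vehicle replicate 2 and 1 run of vehicle replicate 1 carry the prefix ZC1 in their column names, while the other 2 runs of vehicle replicate 1 carry other prefixes; what the prefix marks is not given in the sources used here.

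After 4 h of DHT 725 genes were higher than in vehicle, 4.66% of the 15555 genes tested, and 328 were lower, 2.11% (edgeR quasi-likelihood test, Benjamini-Hochberg adjusted p below 0.05). The rises were larger than the falls. Their median was 0.348 on the log2 scale, with quartiles of 0.234 and 0.656, against -0.277 for the falls, with quartiles of -0.393 and -0.203. The median over all genes tested was -0.00852. Most changes were small, since 528 of the 725 rises and 284 of the 328 falls were under 1.5-fold. More than 2-fold, 107 genes rose, 0.688% of those tested, and 14 fell, 0.09%. Of the 107, 63 had an average level of at least 1 on the log2 CPM scale, and of the 14 ADM alone did. The number of falls depended on every library of the comparison. It was 197 without vehicle replicate 1, 172 without vehicle replicate 2, 127 without DHT replicate 1 and 120 without DHT replicate 2, and the rises numbered 535, 483, 443 and 456 in the same order.

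**Figure D1:**
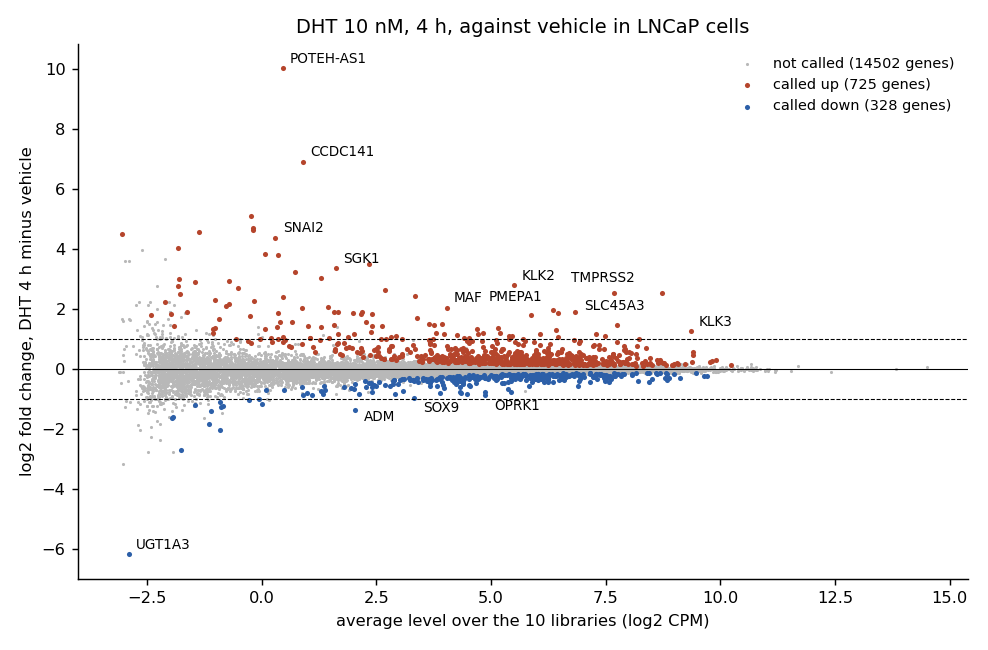
Log2 fold change after 4 h of DHT (vertical axis) against the average level over the 10 libraries in log2 CPM (horizontal axis) for the 15555 genes tested, red for the 725 genes called up, blue for the 328 called down and grey for the rest. Dashed lines mark 2-fold. The called falls lie close to 0, and those past 2-fold other than ADM lie at the left, at low levels.

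Among genes with an average of at least 1 log2 CPM, the 15 largest rises included well known androgen targets. In bulk RNA, a change in the share of cells that express a gene and a change in RNA per cell cannot be told apart. TMPRSS2, a surface serine protease, was at 75.6 and 74.7 CPM in the vehicle libraries and at 441 CPM in both DHT libraries, a log2 fold change of 2.55 ± 0.0393 (SE, n = 2 libraries per group, edgeR adjusted p = 1.15e-13). The groups lay far apart, and the replicates of each group lay close together. KLK2, a secreted kallikrein, rose from 8.79 and 7.49 CPM to 55.2 and 59.3 CPM (2.80 ± 0.0945), and SLC45A3 (prostein), a membrane transporter, from 46.6 and 50.7 CPM to 180 and 186 CPM (1.91 ± 0.0456). PMEPA1, an inhibitor of TGF-beta signalling, rose from 38.7 and 39.1 CPM to 154 and 151 CPM. MAF, a leucine zipper transcription factor, rose from 8.13 and 7.64 CPM to 33.2 and 32.6 CPM.

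SGK1, a kinase that regulates ion channels and that steroid receptors induce, had the second largest log2 fold change of the 15. Its estimated counts were 54 and 45 in vehicle and 575 and 528 with DHT, or 0.892 and 1.14 CPM against 10.8 and 9.81 CPM (3.37 ± 0.158, adjusted p = 1.12e-08). The other large rises came from low levels in vehicle. F5, coagulation factor V, rose from 1.88 and 1.40 CPM to 8.98 and 9.53 CPM. CHRNA2, a nicotinic receptor subunit, rose from 0.677 and 0.914 CPM to 4.41 and 5.28 CPM. HPGD, the enzyme that inactivates prostaglandins, rose from 0.578 and 0.457 CPM to 2.13 and 1.84 CPM, and PTGER4, a receptor for prostaglandin E, from 1.35 and 1.22 CPM to 4.94 and 4.74 CPM. ST6GALNAC1, a sialyltransferase, and TMCC3, a membrane protein, had log2 fold changes of 1.92 and 2.09. TRIM49D1 (3.51) and TRIM49D2 (3.05) are near-identical copies whose reads the counting could split between them, so their separate values are uncertain. TRIM49D2 was at 34 and 0 counts in the vehicle libraries and its call was lost with DESeq2 (adjusted p = 0.0854), 1 of 19 alternatives.

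The 15 largest falls were smaller than the rises. ADM, the vasodilator peptide adrenomedullin, was at 5.53 and 5.33 CPM in vehicle and at 2.30 and 1.97 CPM with DHT, which left 39.3% of the vehicle level (-1.35 ± 0.127, adjusted p = 1.03e-05). SOX9, a transcription factor of progenitor cells, fell from 11 and 10.5 CPM to 5.28 and 5.93 CPM (-0.94 ± 0.0943), leaving 52.0%. OPRK1, the kappa opioid receptor, fell from 33.5 and 37.3 CPM to 20.7 and 21.0 CPM (-0.76 ± 0.0631), and the homeobox gene HOXC13 from 24 and 25 CPM to 15 and 14.2 CPM. In each of these genes both DHT libraries lay below both vehicle libraries, as the rule that chose them required. NAPEPLD, an enzyme of endocannabinoid synthesis, fell from 51.2 and 49.9 CPM to 30.1 and 29.8 CPM and had the highest level in vehicle of the 15. BAMBI, a decoy receptor for TGF-beta family ligands, fell from 20.7 and 22.4 CPM to 12.1 and 11.9 CPM. ZNF703, a corepressor amplified in luminal breast cancer, fell from 34.5 and 34.8 CPM to 18.7 and 19.7 CPM.

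The remaining falls lay between -0.85 and -0.73 on the log2 scale. They were FFAR2, a receptor for short-chain fatty acids, the adhesion gene AMIGO2, the manganese exporter SLC30A10, the cytokine TNFSF15, the zinc finger gene OSR2, the cholesterol exporter ABCA1 and the readthrough loci TMX2-CTNND1 and RBM14-RBM4. The last 2 share exons with their parent genes, so their counts are uncertain, and their calls were lost in 5 and 6 of 19 alternatives in that order. The call of FFAR2 was lost without DHT replicate 2.

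**Figure D2:**
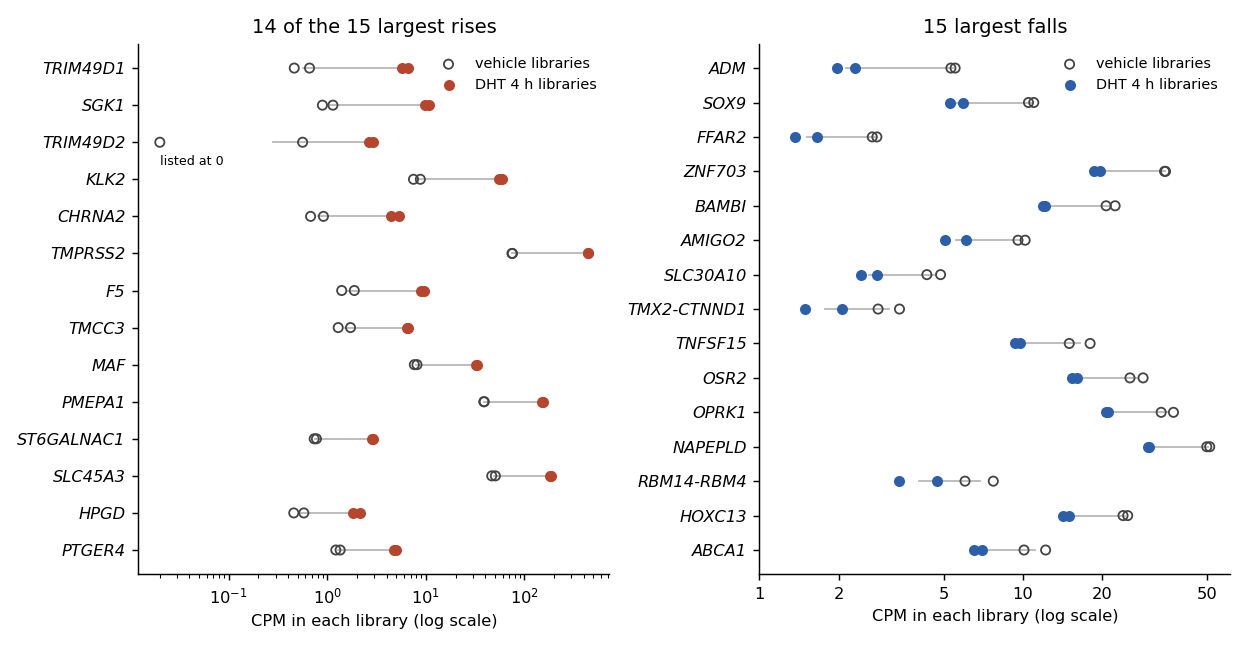
CPM in each library (horizontal log axis) for 14 of the 15 largest rises and the 15 largest falls at an average of at least 1 log2 CPM, with open circles for the 2 vehicle libraries, filled circles for the 2 DHT libraries and a grey line between the group means. TMPRSS2 goes from 75.6 and 74.7 to 441 CPM and ADM from 5.53 and 5.33 to 2.30 and 1.97 CPM, and the TRIM49D2 point listed at 0 is drawn at the left edge.

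At most 3 counts in each vehicle library were found for 10 of the genes called up, and their counts with DHT were 13 to 220 per library. The same counts chose these genes, which passed the filter on low counts through the libraries where they were high, so their ratios are a description. CCDC141, a coiled-coil protein, had 0 and 3 counts in vehicle and 202 and 220 with DHT, a ratio of 132 with an exact 95% counting interval of 44.7 to 641. SLC38A4, an amino acid transporter, had 2 and 1 against 57 and 63 counts (ratio 37.4, 12.5 to 184), and STEAP4, a metalloreductase, 2 and 1 against 46 and 45 (ratio 28.4, 9.41 to 140). ORM1, an acute-phase glycoprotein of plasma, had 1 and 1 against 33 and 27 counts. Its near-identical neighbour ORM2, looked at after its values were seen, had 10 and 1 against 32 and 22, so the reads of the pair may be split, and its call was lost in 6 of 19 alternatives. These intervals cover counting error only.

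POTEH-AS1 had 0 counts in both vehicle libraries and 119 and 165 with DHT, at least 88.5-fold higher against a floor of 3 counts over the group. It has near-identical copies, and those that were tested, LOC100508046 (11 and 4 against 98 and 128 counts) and LOC101929572 (22 and 13 against 109 and 92 counts), were chosen after their values were seen. Their log2 fold changes were 3.80 and 2.42, and both passed the test. With DESeq2 neither did (adjusted p = 0.21 for LOC100508046 and 0.6 for LOC101929572), and without vehicle replicate 1 the call of LOC101929572 was lost. Since the reads of these loci cannot be assigned to 1 copy with certainty, the 3 values may reflect fewer than 3 genes. In the opposite direction UGT1A3, a glucuronidation enzyme that shares exons with the other UGT1A genes, had 10 and 8 counts in vehicle and 0 in both DHT libraries, at least 6.41-fold lower against the same floor. Its call was lost in 5 of 15 alternatives, among them each left-out replicate (adjusted p up to 0.134). It was also chosen after its values were seen, and it had 0.201 and 0.357 CPM after 24 h of DHT and 0 in both libraries after 4 h of enzalutamide.

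A list of 41 genes known to be induced by androgen in LNCaP cells moved almost as a whole. Of the 40 tested, 36 rose and none fell, 90.0% against the 4.66% of all genes, with a median of 1.02 on the log2 scale against -0.00852 for all genes, and 19 rose more than 2-fold. Under the 19 alternatives 34 to 38 members were called up and none down. KLK3, already abundant in vehicle at 259 and 254 CPM, rose to 609 and 631 CPM (1.27 ± 0.0515), and KLK4 rose by 1.00, just under 2-fold. FKBP5, a cochaperone of steroid receptors, rose from 91.7 and 89.5 CPM to 207 and 204 CPM. C1orf116, an androgen-regulated protein of little known function, rose by 1.48, TRPM8, the cold and menthol channel, by 1.83 and ELL2, an elongation factor, by 1.12. The smallest called rise of the list was that of SORD, sorbitol dehydrogenase, from 412 and 400 CPM to 453 and 452 CPM (0.16), and its call was lost in 3 of 19 alternatives. The 4 members not called were PGC, with a log2 fold change of 1.42 ± 0.473, PART1 (0.23), STEAP2 (0.18) and VIPR1 (0.18), and SLC26A3 had too few counts to be tested. Because these genes were listed for their known response to androgen, the direction of the list is no independent finding.

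The 27 tested genes that androgens and glucocorticoids are known to share gave 14 rises, 51.9% against 4.66% of all genes. They gave 2 falls, 7.41% against 2.11%, and a median of 0.28 against -0.00852 for all genes. These genes too were listed for a known response to androgen, and FKBP5 is on both lists, so the direction is no independent finding. SNAI2, a zinc finger factor of epithelial plasticity, was close to absent in vehicle at 0.149 and 0.228 CPM and reached 4.04 and 3.64 CPM with DHT (4.39 ± 0.272). ZBTB16 (PLZF), a transcriptional repressor, rose from 36 and 35.5 CPM to 125 and 126 CPM. TIPARP, an ADP-ribosyltransferase, rose from 11.3 and 10.2 CPM to 31.6 and 29.6 CPM, and the clock gene PER1 from 8.42 and 7.24 CPM to 22.0 and 22.5 CPM. The stress-linked genes ERRFI1 (0.86), CEBPD (0.79), GADD45B (0.75) and NFKBIA (0.63) also rose, although the call of GADD45B was lost in 5 of 19 alternatives, DESeq2 and 3 left-out replicates among them (adjusted p up to 0.201). TSC22D3 (GILZ), a classical glucocorticoid target, went the other way, from 50.8 and 46.7 CPM to 40.0 and 37.8 CPM (-0.33 ± 0.0521), as did the kinase MAP3K8 (-0.60). The rises numbered 11 to 15 and the falls stayed at 2 under the alternatives.

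Genes known to be repressed by androgen gave a mixed result at 4 h. Of 28 tested, 8 fell, 28.6% against 2.11% of all genes, 3 rose, 10.7% against 4.66%, and 17 were not called. The list median was -0.07. The list was made from a known response, so its direction is no independent finding. SOX9 and OPRK1 were the largest falls, and LRRN1 (-0.32), the pioneer factor GATA2 (-0.31), GPER1 (-0.29), SLITRK3, PEG3 and ACKR3 followed. HES6 (0.57), TMEFF2 (0.37) and UGT2B11 (0.19) rose, the last of which belongs to a family of close paralogs. Under the alternatives 6 to 12 members fell and 2 to 4 rose, and the calls of GPER1 (7 of 19), PEG3 and UGT2B11 (4 of 19 each) were lost in some.

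Receptor and lineage genes moved in part. Of the 5 steroid receptor genes tested, NR3C2, the mineralocorticoid receptor, was the member that rose (0.67), 20% against 4.66% of all genes. Among 19 lineage transcription factors 7 rose, 36.8% against 4.66%, and 4 fell, 21.1% against 2.11%. KLF5 rose from 4.08 and 4.32 CPM to 11.4 and 11.3 CPM (1.44), GRHL2, an epithelial grainyhead factor, from 98.5 and 104 CPM to 194 and 193 CPM (0.94), and MEIS1 (0.63), EHF (0.57), ZNF217 and ETV1 by less. SOX9, ELF3 (-0.46), GATA2 and HOXB13 (-0.29) fell. Among 18 coregulators of steroid receptors 3 rose, PIAS1 (0.28), NRIP1 (0.22) and NCOR1 (0.20), and 2 fell, with NCOA3 at -0.31, which is 16.7% and 11.1% against the same shares. The calls of MEIS1 and NRIP1 were lost in 2 of 19 alternatives, those of ETV1 and NCOA3 in 3 and that of NCOR1 in 5.

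Receptors and adaptors of growth factor signalling were among the genes called. Of 29 ErbB, insulin and IGF genes tested, 5 rose and 5 fell, 17.2% in each direction against 4.66% and 2.11% of all genes. IRS2, an insulin receptor substrate, rose from 3.12 and 2.36 CPM to 8.65 and 7.95 CPM (1.57 ± 0.135), IGF1R from 24.7 and 23.6 CPM to 56.8 and 55.8 CPM (1.22), IGFBP3 by 1.06 and IRS1 by 1.01. EGFR rose by 0.41 and ERBB2 fell by 0.17. The ligand HBEGF (-0.60) and the PI3-kinase subunits PIK3R3 (-0.39) and PIK3R1 (-0.21) fell. Among 24 feedback inhibitors of MAP kinase and receptor signalling, LRIG1 (0.88), ERRFI1, the phosphatases DUSP4 (0.67) and DUSP10 (0.57) and SPRED1 (0.41) rose and DUSP16 (-0.17) fell, 20.8% and 4.17%. The immediate early list gave 3 rises (11.5%) and 5 falls (19.2%) among 26 genes, with KLF6 up by 0.85 and the orphan receptor NR4A2 down from 1.16 and 1.02 CPM to 0.585 and 0.502 CPM (-1.01). The call of NR4A2 was lost in 7 of 19 alternatives, with DESeq2 and without each replicate in turn (adjusted p up to 0.218). Those of SPRED1 (6), ERBB2 (4), DUSP16 and PIK3R1 (3 each) were also lost in some. Every other immediate early fall lost its call in some too, JUNB in 10, MCL1 in 9, IER2 in 4 and ZFP36L1 in 1. Of the immediate early rises NR4A1 lost its call in 12, and KLF6 and JUN kept theirs.

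Some lipid genes were called. Of 40 cholesterol and fatty acid genes 9 rose, 22.5% against 4.66% of all genes, and 3 fell, 7.5% against 2.11%. ELOVL7, a fatty acid elongase, rose from 17.5 and 16.6 CPM to 32.9 and 34.5 CPM (0.98 ± 0.0603) and ACSL3, which activates fatty acids, by 0.51. SC5D (0.38) and IDI1 (0.24), enzymes of sterol synthesis, and ELOVL5 (0.30) rose as well. ABCA1 and ABCG1 (-0.36), which export cholesterol, and INSIG2 (-0.38), which retains the SREBP complex, fell. The list median was 0.01. Among 12 polyamine genes, SAT1 (0.39), AMD1 (0.29), ODC1 (0.23) and ARG2 (0.15) rose, 33.3% against 4.66%, and none fell. The calls of IDI1 and ARG2 were lost in 3 of 19 alternatives and that of ABCG1 in 2. Those of the lipid rises HMGCS1 and ACACA were each lost in 4.

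Secretory genes moved in part as well. Of 28 genes of the secretory pathway and glycosylation 7 rose, 25% against 4.66% of all genes, and 2 fell, 7.14% against 2.11%. ST6GALNAC1 (1.92), UAP1 (0.77), which makes the sugar donor for N-glycans, and the vesicle GTPases RAB3B (0.50) and RAB27A (0.48) rose. The calls of the rises GALNT7 and B4GALT1 were each lost in 3 of 19 alternatives. Both falls lost their calls in some, RAB3D in 6 and SYTL2 in 2. Of 24 ER chaperone and unfolded protein genes 2 rose, 8.33% against 4.66% of all genes, and 1 fell, 4.17% against 2.11%. These shares lie near those of all genes. ERN1, the sensor kinase IRE1, rose from 35 and 34.8 CPM to 67.5 and 67.8 CPM (0.95). SEL1L (0.17) rose as well, and its call was lost in 7 of 19 alternatives. XBP1, whose mRNA IRE1 splices, fell by 0.22. Of 26 integrated stress response genes 5 fell, 19.2% against 2.11%, led by CHAC1 (-0.39) and SLC7A5 (-0.30), and VLDLR rose. Of 15 arrestin and fuel genes 4 fell, 26.7% against 2.11% of all genes, ARRDC3 by 0.43, ARRDC1 by 0.28, ARRDC4 by 0.23 and TXNIP by 0.13. The rises were CAMKK2 (0.80), a kinase upstream of AMPK, and PFKFB2 (0.35), 13.3% against 4.66%. The calls of TXNIP and ARRDC4 were lost in 4 of 19 alternatives, each of them a left-out replicate, those of CHAC1 and VLDLR in 3, that of ARRDC1 in 2 and that of XBP1 in 1. Of the other stress response falls, STC2 lost its call in 5, TRIB3 in 3 and DDIT4 in 2, and SLC7A5 kept it.

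Cell cycle genes showed little change at 4 h. Of 34 G1/S genes none rose and CCNG2 (-0.39) fell, of 25 mitosis genes KIF20A (0.23) and TTK (0.22) rose, and of 22 MYC and ribosome biogenesis genes GNL3 (-0.11) fell. The calls of TTK and GNL3 were lost in 8 of 19 alternatives, each left-out replicate among them, and that of KIF20A in 2. The shares of these 3 lists, between 0 and 8.00%, lie near the 4.66% and 2.11% of all genes. The 13 reference genes had a median log2 fold change of -0.004, and B2M (0.21) was the member called, except without DHT replicate 1. The remaining lists are small and stand beside 4.66% up and 2.11% down over all genes. Of 21 TGF-beta and BMP genes 3 rose (14.3%) and 1 fell (4.76%). Of 25 hypoxia genes 3 rose (12%) and 4 fell (16%). SLC2A3 (3 and 0 against 27 and 30 counts) and VEGFA (0.46) were among these rises. Of 28 transporters 6 rose (21.4%) and 2 fell (7.14%), and of 18 clock genes 3 rose (16.7%) and 0 fell. Of 23 p53 genes PMAIP1 (0.77) rose (4.35%) and 2 fell (8.7%). Of 23 interferon and NF-kappaB genes 2 rose and 2 fell (8.7% each). Of 14 plasticity genes 3 rose (21.4%) and 1 fell (7.14%).

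**Figure D3:**
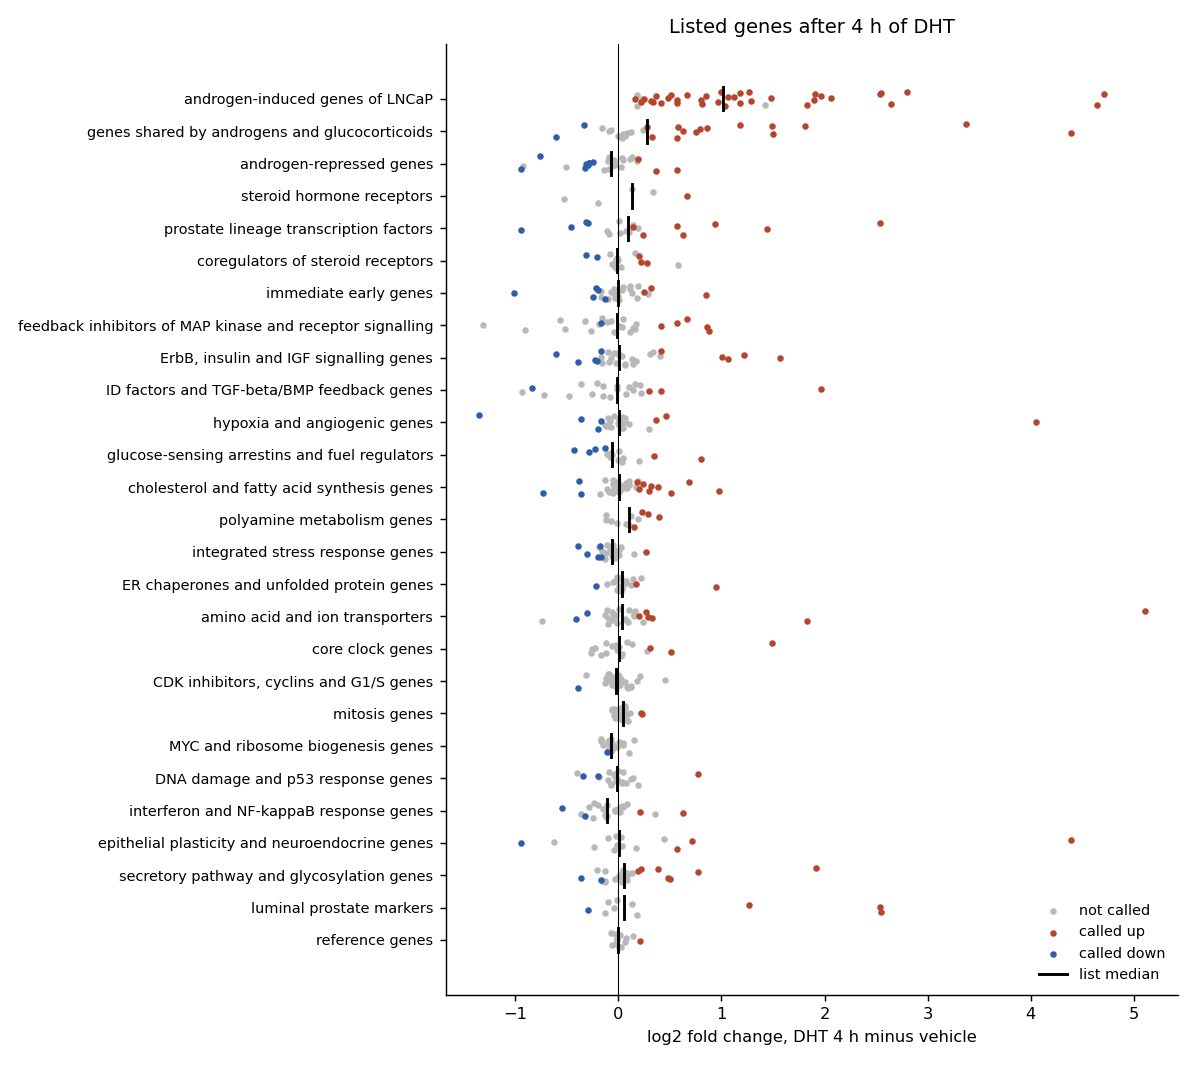
Log2 fold change after 4 h of DHT (horizontal axis) for every tested gene of the 27 functional lists (rows), red for genes called up, blue for genes called down, grey for genes not called, with a black bar at the list median. The androgen-induced list has its median at 1.02, and no other list has a median above 0.28.

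Several early rises were lower at 24 h and others were higher. The change from 4 h to 24 h of DHT was tested in the same model, where 26.3% of all genes were higher at 24 h than at 4 h and 23.5% were lower. Of 14 of the 15 largest rises 8 were higher still at 24 h, 4 were lower and the other 2 were not called. Both the choice of these genes and this contrast use the DHT 4 h libraries. The DHT 24 h libraries carry the prefixes ZC2 and ZC3 while both DHT 4 h libraries carry ZC1, and no vehicle library is matched to a time, so time and prefix cannot be told apart. SGK1 had a log2 fold change against vehicle of 3.37 at 4 h and 0.52 at 24 h, a difference of -2.85 ± 0.15 (edgeR adjusted p = 1.06e-08). TMCC3 went from 2.09 to 0.80 and MAF from 2.06 to 1.21. ST6GALNAC1 went from 1.92 to 4.62, HPGD from 1.90 to 4.55, CHRNA2 from 2.64 to 5.07, F5 from 2.46 to 4.48 and KLK2 from 2.80 to 4.23. TMPRSS2 (2.55 and 2.34) was near its later level at 4 h, with a lower value at 24 h that passed the test. Of the 15 falls 6 were lower still at 24 h, with OPRK1 at -0.76 and then -2.21 and ADM at -1.35 and then -2.68, and SOX9 and BAMBI were higher again.

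Values at both times are given here for some listed genes, chosen after their values were seen, each as a log2 fold change against the shared vehicle libraries, and no test of the difference is given for them. TIPARP was at 1.5 after 4 h and at -0.15 after 24 h, IRS2 at 1.57 and 0.52, IRS1 at 1.01 and 0.14, IGFBP3 at 1.06 and -0.01, KLF5 at 1.44 and 0.43, GRHL2 at 0.94 and 0.13 and ERN1 at 0.95 and 0.07. KLK3 was at 1.27 and then 3.04, TRPM8 at 1.83 and 3.62, ABCC4 at 0.67 and 1.87 and ELOVL7 at 0.98 and 2.30. IGF1R was at 1.22 and 1.13 and PMEPA1 at 1.97 and 1.91.

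After 4 h of enzalutamide, which opposes androgens, the same 14 rises lay between -0.84 and 0.50 on the log2 scale against the same vehicle libraries. KLK2 was at -0.62 ± 0.127 (SE) and SLC45A3 at -0.55 ± 0.0494, MAF at 0.50 ± 0.0793 and SGK1 at 0.03 ± 0.212. The lowest value, -0.84 ± 0.769, was that of TRIM49D2, which was at 0.212 and 0.162 CPM with enzalutamide. The 15 falls lay between -0.35 and 0.35. Both enzalutamide 4 h libraries carry the prefix ZC2, which among the vehicle columns only 1 run of replicate 1 carries. The drug and the prefix were therefore not separated here.

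**Figure D4:**
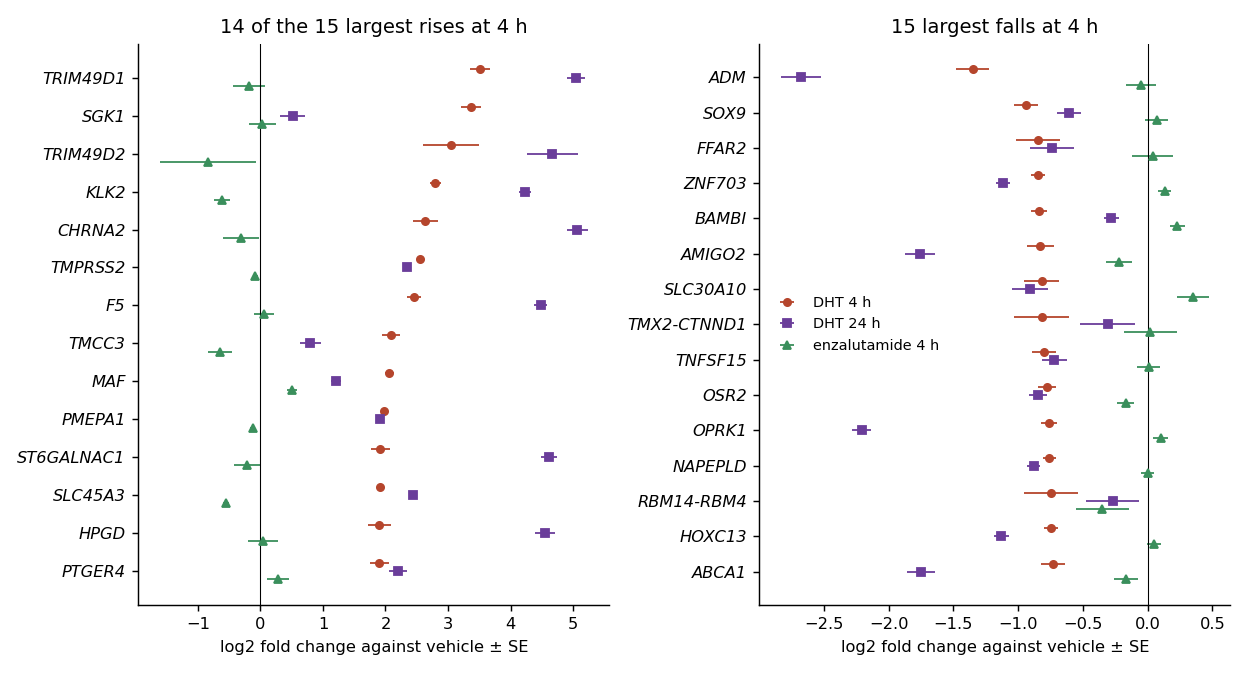
Log2 fold change against vehicle with its SE (horizontal axis) for 14 of the 15 largest rises and the 15 largest falls of the 4 h comparison, after DHT for 4 h (circles), DHT for 24 h (squares) and enzalutamide for 4 h (triangles). SGK1 moves from 3.37 at 4 h to 0.52 at 24 h, ST6GALNAC1 from 1.92 to 4.62, and the enzalutamide values stay between -0.84 and 0.50; the 3 contrasts share the vehicle libraries.

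RefSeq promoters (250 bases before to 50 after the start, GRCh38.p14) were found for 11940 of the genes tested. A single hexamer, AGAACA or TGTTCT on either strand, lay in 9.30% of them, in 7.65% of the promoters of genes called up, in 14.9% of those that rose more than 2-fold and in 7.29% of those called down. No promoter held the whole palindrome without a mismatch. With at most 1 mismatch in the 12 fixed bases it lay in 7 of the 11940 promoters, 4 of them among 575 of genes called up and none among 247 of genes called down, and with at most 2 mismatches in 0.66% of all, 1.04% of those called up and 5.41% (4 of 74) of those that rose more than 2-fold. Of the 4 genes called up with 1 mismatch 3 are the near-identical copies around POTEH-AS1, which hold the same 15 bases and therefore count as 1 sequence. With copies that share the 15 bases and 20 on either side counted once, the shares with at most 2 mismatches were 0.64% of all, 0.7% of those called up and 2.78% (2 of 72) of those that rose more than 2-fold, and a single hexamer lay in 9.32%, 7.33% and 12.5% of the same sets. The copies are shown because POTEH-AS1 rose from 0 counts in vehicle. Each window covers 20 bases on either side of the element, in capitals, and the sequences come from chr22:15703520-15703574 on the minus strand, chr14:18980908-18980962 on the minus strand and chr14:19420806-19420860 on the plus strand.

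POTEH-AS1: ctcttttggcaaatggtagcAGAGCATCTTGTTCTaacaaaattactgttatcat

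LOC100508046: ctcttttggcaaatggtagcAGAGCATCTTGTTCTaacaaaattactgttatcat

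LOC101929572: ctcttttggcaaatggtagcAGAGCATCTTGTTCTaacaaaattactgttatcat

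The 55 bases were identical in all 3, and the element began 200, 149 and 200 bases before the annotated start. The fourth promoter was that of RNF41, a ubiquitin ligase, with AGAACATAGAGTTCT and a log2 fold change of 0.23. A match describes the letters in this window and not binding by any factor.

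Some of the genes called up lay next to each other. Of 706 genes called up that matched a RefSeq symbol, 223 (31.6%) lay next to another gene called up in the order of tested genes along the chromosome, in 99 runs. The longest run held 6 genes on chromosome 4, PPM1K, HERC6, HERC5, PIGY, PYURF and HERC3, with log2 fold changes of 0.21 to 0.85. PIGY and PYURF overlap and are not independent. Other runs joined KLK3 with KLK2, PMEPA1 with the noncoding RNA NKILA (1.01), F5 with the thiamine transporter SLC19A2 (1.07), and SGK1 with the glucose transporter SLC2A12 (1.10). SLC2A12 rose from 34.4 and 36.8 CPM to 76.3 and 75.7 CPM. These neighbours were looked at after their values were seen, and no share expected for unrelated genes was computed.

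The limit of 2-fold separates genes with nearly the same value. Just inside it lay ENDOD1 (1.00), IRS1 (1.01), MTMR9 (1.01), NKILA (1.01) and FRK (1.02), and just outside it KLK4 (1.00), DUBR (0.99), SLC16A6 (0.99), CSGALNACT1 (0.99) and ELOVL7 (0.98).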

How the data were processed

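Poly(A) RNA of LNCaP cells was prepared with a directional kit and sequenced. The authors aligned the reads with TopHat2 (2.0) and used Partek for quantification, on build hg19 per the submitters' processing notes. They deposited unnormalized estimated counts for each gene, some of them fractional where a read was divided among genes. The strand setting of the counting is not given in the sources used here. RPKM tables of the siRNA experiment were not used.

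Here the estimated counts were rounded, the 3 vehicle columns named replicate 1 were summed, and a gene missing from a table was set to 0 there (genes of the DHT table alone had at most 11 counts in total). Between the vehicle columns of replicate 1 the chi-square per gene was 1.53 to 1.56, against 3.56 to 3.74 between any of them and replicate 2, where sampling noise alone gives 1. Between the 2 libraries of a condition it was 5.16 for vehicle, 2.03 for DHT 4 h and 4.57 for DHT 24 h. For enzalutamide it was 9.83 at 4 h and 2.28 at 24 h. The number of per-sample columns not used is 0. All 10 ligand libraries entered 1 edgeR 4.0.16 quasi-likelihood model (R 4.3.3) with TMM factors and the default filter, and DHT 4 h minus vehicle was the contrast. P-values were Benjamini-Hochberg adjusted over the 15555 genes, and they measure only the spread between these samples, which may be technical. Genes were named as the 15 largest rises and the 15 largest falls (called, non-overlapping groups, mean log2 CPM not under 1), as members of gene lists, as called up with at most 3 counts in each vehicle library (with their near-identical copies), or as nearest to 2-fold. Some genes that these rules name, 1 of the 15 largest rises among them, are not reported here. The members, lists and rules were chosen with earlier results of these data known. Where the groups were compared near 0 counts, ratios carry exact 95% binomial intervals. DESeq2 1.42.0, limma voom (3.58.1) and other normalizations, filters and libraries were alternatives. Promoters were RefSeq sequences. Scripts were tested on simulated data.

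Same-numbered vehicle and DHT 4 h libraries showed no shared deviation from their group means (correlation 0.003 across genes). With 2 libraries per group this cannot tell whether the samples were paired in culture or preparation.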

Additional observations from a re-analysis of the deposited data

Results flagged for a closer look

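For 20 of 29 genes named as largest rises and falls, the effect of DHT differed between the 4 h and the 24 h time points by a direct test of the difference (edgeR, Benjamini-Hochberg adjusted over all genes). The 4 h libraries that chose the genes also enter this test, and 26.3% of all genes were higher and 23.5% lower at 24 h than at 4 h. The 24 h libraries carry the prefixes ZC2 and ZC3 and both 4 h libraries ZC1, so time and prefix cannot be told apart.

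Among rises, the change at 24 h exceeded that at 4 h, on the log2 scale, by 2.71 for ST6GALNAC1, 2.65 for HPGD, 2.43 for CHRNA2, 2.03 for F5, 1.62 for TRIM49D2, 1.54 for TRIM49D1, 1.43 for KLK2 and 0.52 for SLC45A3. The difference was -2.85 for SGK1, -1.28 for TMCC3, -0.85 for MAF and -0.21 for TMPRSS2.

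Among falls, OPRK1 (-1.45), ADM (-1.33), ABCA1 (-1.01), AMIGO2 (-0.93), HOXC13 (-0.38) and ZNF703 (-0.27) were lower at 24 h than at 4 h. BAMBI (0.55) and SOX9 (0.33) were higher.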

How the results depend on the processing

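Most counts were within 1.5 times of the values above under the 19 alternatives. None of the 14 rises, 15 falls and 10 genes near 0 in vehicle listed below changed direction. The rises and falls were chosen as called with non-overlapping groups, and the 10 genes as called up with at most 3 counts in each vehicle library. A change of direction was therefore unlikely from the start, and its absence is a description only. The 725 rises became 443 to 535 when a replicate was left out and 141 at an unadjusted p below 0.05 with a fold above 2. The 328 falls became 120 to 197 without a replicate, 549 without a filter on low counts, 504 with the 4 vehicle columns as separate samples and 45 at the unadjusted threshold. The 107 rises past 2-fold ranged from 96 to 100 without a replicate. The 14 falls past 2-fold became 7 to 14 without a replicate, 3 with DESeq2, 30 without the filter, 45 at the unadjusted threshold, and 9, 6 and 9 when vehicle replicate 1 was taken from run 1, 2 or 3 alone. An alternative chosen after seeing the data, with the prefix ZC1 libraries alone, gave 962 rises, 454 falls, 105 rises and 8 falls past 2-fold. It fitted only vehicle and DHT 4 h libraries, with vehicle replicate 1 from its run 1 alone. The 4 vehicle and DHT 4 h libraries without regard to prefix gave 981 rises, 492 falls, 109 rises and 15 falls past 2-fold. The number of named falls that were higher again at 24 h was 2, and it became 1 with upper quartile factors, 4 without the filter and 1 to 3 without a replicate. With the replicate block the counts were 649, 267, 106 and 11, and the block is a shared number only. Of 14 named rises 13 kept their call in all 19 alternatives (not TRIM49D2), of the 15 falls 12 (not FFAR2, RBM14-RBM4 or TMX2-CTNND1), and of the 10 genes near 0 in vehicle 6 (not GOLGA6L17P, OR5B2, TMEM100 or TRIM53AP). The cause was not tested. Depth limits genes with few counts.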
